A study of Drosophila melanogaster with 4 samples.

Results

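The regions described here are stretches of the X chromosome of Drosophila melanogaster at which chromatin was recovered with an antibody against POF. They were chosen as every enriched region on the sequence named X whose midpoint lay at or below 20.4 Mb, which takes in most of the 22.4 Mb of X and leaves out its centromere-proximal end. The rule found 577 of 3139 regions in replicate 1, 530 of 2853 in replicate 2 and 1955 of 11489 in the list for both replicates together, or combined list. Midpoints were used only to place regions, so the rule used no score or width.

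Chromatin immunoprecipitation with sequencing (ChIP-seq) was carried out on wild-type embryos of the strain Oregon-R at 14 to 16 h of development, crosslinked with 1.8% formaldehyde. The sample titles name POF and MO 459, without saying what the latter is. There were 2 ChIP samples and 2 inputs of total chromatin, with each input named as the background of 1 ChIP sample. The embryos were whole and the labels give no sex, so the single X of males and the X pair of females cannot be told apart, nor can cell types. Whether the replicates are separate collections of embryos is not stated, and p-values then measure only a spread that could be technical. No mutant or unrelated antibody was part of the samples, so nonspecific recovery at a region was not tested.

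POF binds RNA and is best known for decorating the small chromosome 4, mainly at active genes. X is the chromosome that flies compensate in males, through the MSL complex and its roX RNAs, and POF has been reported at a few X sites close to the roX genes. As a check of the target, regions covered 13.1% of chromosome 4 in replicate 1 and 13.6% in replicate 2, against 5.41% and 4.93% of the X stretch. The scores went the other way, since the median on chromosome 4 was 0.645 in replicate 1, 0.592 in replicate 2 and 0.441 for combined regions, below X and the autosome arms in each list. Coordinates are on FlyBase release 5. Genes and sequences at these positions are not given, because no annotation or genome of that release was used here. Read depth is unknown, as the lists hold no counts.

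X carried many regions, at a density within the range of the single autosome arms in each list. Replicate 1 had 28.3 regions per Mb that covered 1.10 Mb, and replicate 2 had 26.0 per Mb that covered 1.01 Mb. Over the replicates this was 27.1 ± 1.63 regions per Mb and 5.17% ± 0.339 of the sequence (SD, n = 2). The combined list was far denser, with 95.8 regions per Mb over 3.44 Mb, or 16.9% of the stretch. Its narrowest region measured 1001 bp, against 1301 bp in both replicate lists. How the combined list was made is not stated, and the cause of its higher density was not tested.

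At the rule's bound the last regions inside ran from 20395185 to 20396838 in replicate 1, with a score of 0.798, and from 20381454 to 20383621 in replicate 2, with a score of 0.858. The first regions outside started at 20630567 and 20630612 and scored 0.921 and 0.687. In the combined list the last region inside ran from 20397250 to 20398269 and the first outside from 20436336 to 20437336, with scores of 0.637 and 0.631. Past the bound X was sparser. The remaining 2.02 Mb had 9.39 regions per Mb in replicate 1, 8.90 in replicate 2 and 45.5 among combined regions.

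The strongest reproducible X region ran from 14074394 to 14077956, a width of 3563 bp. Its score was 2.55 in the combined list, 2.34 in replicate 1 and 2.75 in replicate 2, and it ranked first on X in both replicates. The score is the authors' own enrichment value per region, with no scale stated in the file headers. It was read as a log2 ratio from the spacing of its values. On X, the distance from the commonest score was, to within 1e-09, the log2 of a fraction with no whole number above 60 for 29.3% of the other regions in replicate 1, 28.4% in replicate 2 and 11.9% among combined regions. With natural or base-10 logarithms it was so for 0%. Scores are compared only within a list.

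Of the X regions present in both replicate lists, the next best by combined score lay at 2218611 to 2221292 and 2631788 to 2634095. The first of these scored 1.99 in the combined list, 1.86 in replicate 1 and 2.20 in replicate 2, and the other scored 1.69, 1.85 and 1.62. The regions from 9027657 to 9030594 and from 5222109 to 5225524 followed, with combined scores of 1.54 and 1.48. All of these were within the 10 best X regions of each replicate. Their order was not the same, since the region at 5222109 had rank 9 on X in replicate 1 and rank 3 in replicate 2.

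Further down the 10 best, the order differed more between replicates. The region from 19246123 to 19248815 scored 1.78 in replicate 1, rank 5 on X, but 1.27 in replicate 2, rank 25. The remaining 4 regions of the 10, at 514270 to 516691, 20127076 to 20129459, 2843384 to 2845803 and 380604 to 382880, had combined scores from 1.42 down to 1.38. The 10 regions were spread from 380604 to 20129459, although 5 of them lay in the first 3 Mb. They measured 2277 to 3563 bp, all wider than the combined X median of 1506 bp but well short of the widest regions.

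The widest combined X regions that overlapped both replicate lists were others. They ran from 5588090 to 5595228 (7139 bp), from 19736436 to 19743529 (7094 bp), from 4576591 to 4583198 (6608 bp), from 19387485 to 19393799 (6315 bp) and from 1966686 to 1972896 (6211 bp). The first and the third of these were each matched by 2 separate regions in both replicate lists. The second was matched by 2114 bp in replicate 1 and 1667 bp in replicate 2, and the fourth by 4714 and 2051 bp. The widths are thus those of the combined list only. The widest X region of any kind measured 5706 bp in replicate 1 and 5323 bp in replicate 2. In the order given, the combined scores of these regions were 0.617, 0.584, 0.637, 0.644 and 0.774, and none was among the 100 best on X. Score and width were thus not interchangeable on X. Spearman's rho between them was 0.496 over the 577 regions of replicate 1, 0.544 over the 530 of replicate 2 and only 0.0778 over the 1955 combined regions, which in each case share their library or libraries.

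X regions were short, with median widths between 1 and 2 kb in every list. The median width was 1855 bp in replicate 1, with the middle 50% of regions from 1491 to 2138 bp. Replicate 2 had a median of 1889.5 bp, and its middle 50% ran up to 2110.5 bp. The combined regions had a median of 1506 bp, with 1162.5 to 2064.5 bp, and 58 regions had the minimum of 1001 bp. Wide regions were rare. More than 5 kb was reached by 3 regions in replicate 1, 2 in replicate 2 and 18 among combined regions.

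Along X, coverage rose and fell by large factors over distances of megabases. In 41 windows of 500 kb, coverage ran from 1.87% to 14.9% in replicate 1 (median 5.04%), from 1.50% to 10.5% in replicate 2 (median 4.69%) and from 5.41% to 32.0% for combined regions (median 17.0%). The most covered window, from 1500001 to 2000000, had 35 regions in replicate 1 and 28 in replicate 2, a mean coverage of 12.7% ± 3.09 (SD, n = 2). It was followed by its neighbours on both sides, from 2000001 to 2500000 with 9.73% ± 2.00 and from 1000001 to 1500000 with 9.32% ± 0.806. These 3 windows were the highest ones of replicate 1. In replicate 2 the peak window was the same, but 3 windows elsewhere stood above the 8.32% of the window from 2000001. They started at 18500001, 15500001 and 6500001, with 8.96%, 8.43% and 8.38%.

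The least covered window by the mean of the replicates was at the distal tip, from 1 to 500000, with 1.84% ± 0.0339 and 5 regions in each. The window from 3000001 to 3500000 had 2.19% ± 0.919, and that from 12000001 to 12500000 had 2.41% ± 1.29. In replicate 2 alone these 2 windows, with 1.54% and 1.50%, were below the 1.82% of the tip. The lowest window lay 1 Mb from the peak window, so the distal 2 Mb held both the lowest and the highest mean. Broader stretches differed less. In 4 equal stretches of 5.1 Mb from the tip, coverage was 6.53%, 5.39%, 4.20% and 5.52% in replicate 1. Replicate 2 had 5.18%, 4.92%, 3.64% and 5.99%, and combined regions covered 18.5%, 16.0%, 14.1% and 18.7%. The stretch from 10.2 to 15.3 Mb was the lowest in all 3 lists, and the highest was the most distal one in replicate 1 but the most proximal one for replicate 2 and the combined regions.

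The 2 replicates drew a similar landscape. Over the 41 windows, coverage in replicate 1 and replicate 2 had a Pearson r of 0.818 and a Spearman rho of 0.805, given as a description, since neighbouring windows are not independent and all windows share the same libraries. Without the 2 windows farthest from the median, both between 1.5 and 2.5 Mb, r was 0.772 and rho 0.778. Replicate 1 was the higher in 27 of the 41 windows. The widest gap between the replicates was in the peak window itself, at 14.9% against 10.5%. The window from 17000001 to 17500000 went the other way, with 5 regions and 1.90% in replicate 1 but 13 regions and 4.71% in replicate 2.

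**Figure D1:**
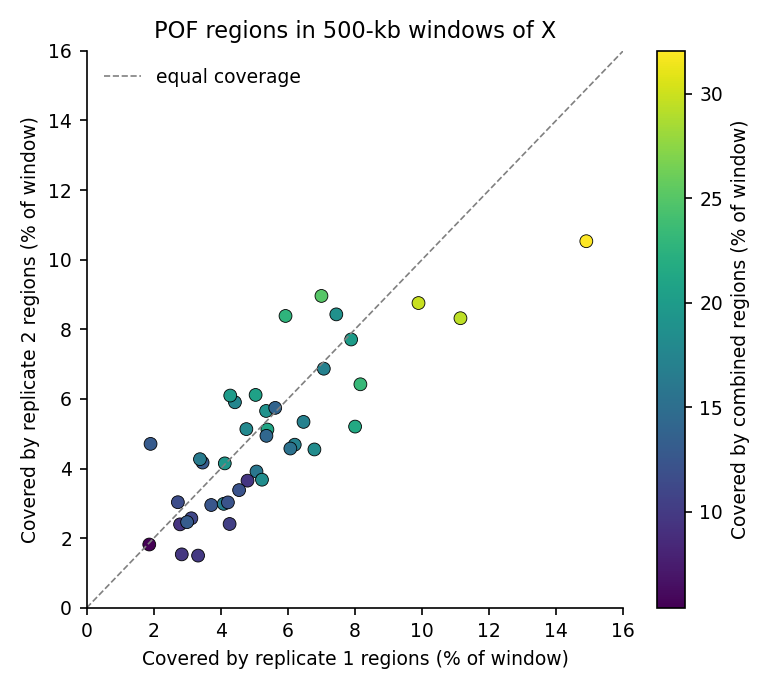
Share of each 500-kb window of X covered by regions of replicate 1 (horizontal axis, percent) and replicate 2 (vertical axis, percent), 1 point per window, coloured by coverage in the combined list, with the dashed line at equal coverage. The 3 windows at the upper right, between 1 and 2.5 Mb, stand above 8% in both replicates, and the window next to the tip lies at the lower left with 1.87% and 1.82%.

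At the level of single regions, agreement was partial. An overlap of at least 1 bp with replicate 2 was found for 324 of the 577 regions of replicate 1, which is 56.2% (95% Wilson interval 52.1 to 60.1), against 55.3% over the whole list. Of the 530 replicate 2 regions, 326 overlapped replicate 1, or 61.5% (57.3 to 65.6), against 61.1% over the whole list. X was thus close to the background of the series in both directions. Bases covered in both replicates came to 605 kb of the 1505 kb covered in either, or 40.2%.

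Where regions of the replicates overlapped, their midpoints were mostly close. Pairs were chosen by overlap, which in itself limits this distance. The midpoints of the 324 overlapping pairs lay a median of 105 bp apart, and 233 pairs (71.9%) were within 250 bp. Some replicate 2 regions, such as that from 548840 to 551151, were in 2 pairs. Across these pairs the scores had a Spearman rho of 0.594 and a Pearson r of 0.768, and the widths a rho of 0.596, as a description over regions of 2 libraries. Regions without a partner were mostly not near misses. Only 25 of the 253 unmatched replicate 1 regions and 20 of the 204 unmatched replicate 2 regions had a region of the other list within 1 kb, and the median distance to the nearest one was 9.54 kb and 9.32 kb.

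Agreement followed width much more closely than score. In replicate 1, 19.0% (95% Wilson interval 12.9 to 27.0) of the narrowest 20% of X regions, up to 1436 bp, overlapped replicate 2, and the share rose through 35.7%, 51.3% and 80.0% to 94.8% (89.2 to 97.6) of the widest 20%, from 2218 bp. In replicate 2 the shares were 30.2%, 37.7%, 64.2%, 82.1% and 93.4%. On the arms, too, overlapping regions were wider than the others, with medians of 2039 against 1511 bp in replicate 1 and 2045 against 1490 bp in replicate 2. A wide region has more bases at which an overlap can occur, and the part of this in the trend was not tested. With an overlap of at least 50% of both regions required instead, the shares of the narrowest and widest 20% were 16.4% and 92.2% in replicate 1 and 26.4% and 90.6% in replicate 2.

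By score, the lower 4 of 5 equal groups had shares close to each other. They had 50.9%, 50.4%, 49.6% and 53.9% in replicate 1 and 57.5%, 50.0%, 56.6% and 52.8% in replicate 2. The best scoring 20% had a larger share, with 75.9% (67.3 to 82.7) in replicate 1, from a score of 0.964. In replicate 2 it was 90.6% (83.5 to 94.8), from 0.879. Intervals cover counting error only. Regions of 1 library are not replicates, so the groups were not tested against each other.

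**Figure D2:**
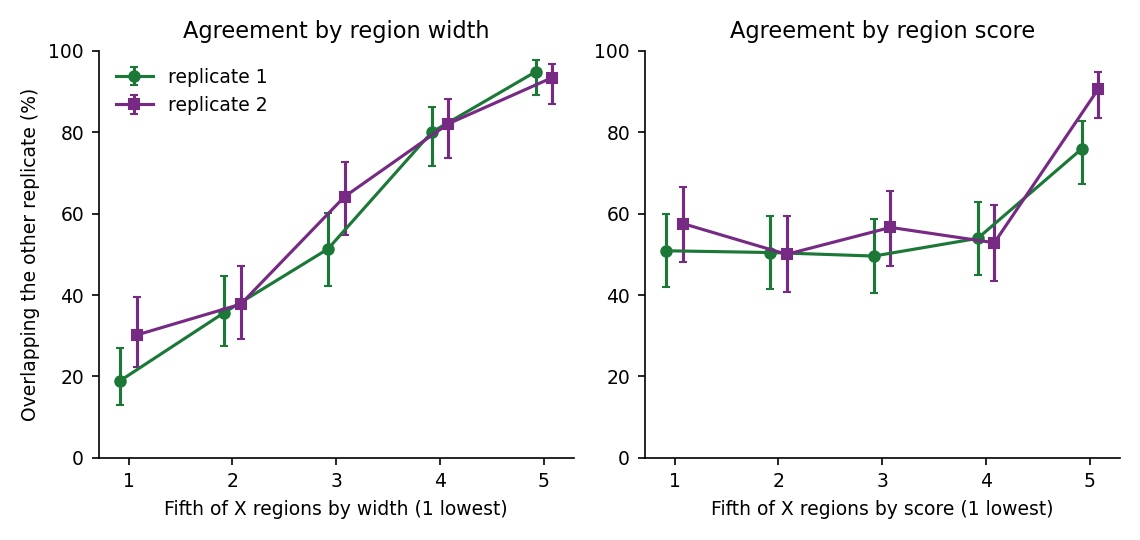
Share of X regions of each replicate that overlapped the other replicate by at least 1 bp (vertical axis, percent), in 5 equal groups of the regions ordered by width (left) and by score (right), with 95% Wilson intervals as bars. By width the share climbs from 19.0% to 94.8% in replicate 1 and from 30.2% to 93.4% in replicate 2, while by score it is level over the lower 4 groups.

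The combined list kept nearly all replicate regions on X, namely 558 of 577 from replicate 1 (96.7%, against 97.4% over the whole list) and 523 of 530 from replicate 2 (98.7%, against 97.9%). Most of its regions were in neither replicate list. Of the 1955 combined X regions, 318 overlapped both replicate lists, or 16.3% (95% Wilson interval 14.7 to 18.0), against 14.9% over the whole combined list. A further 233 overlapped replicate 1 only and 194 replicate 2 only, while 1210, or 61.9% (59.7 to 64.0), overlapped neither, against 65.0% over the whole list. The shares on X were near the background, and as the combined regions come from these same samples they were not tested.

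The regions seen in both replicates were wider and higher scoring at the median than the others. Their median width was 2530.5 bp and their median score 0.674, and the narrowest measured 1662 bp. Not all of them were strong, since the lowest scored 0.338 and had rank 1925 on X. A wide region has more bases at which an overlap can occur, and the part of this in the difference was not tested. Regions seen in neither had a median width of 1259 bp and a median score of 0.543. Of these 1210, 660 (54.5%) were narrower than 1301 bp, the narrowest replicate region, against 57.5% over the whole combined list. By length, regions in both lists made up 27.2% of the covered sequence and those in neither 48.8%, against 25.3% and 52.0% over the whole list. The arms had the same order, with medians of 2491 bp and 0.600 in both and 1235 bp and 0.466 in neither. The scores of regions in 1 list only, with medians of 0.525 and 0.517, were below those of regions in neither.

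**Figure D3:**
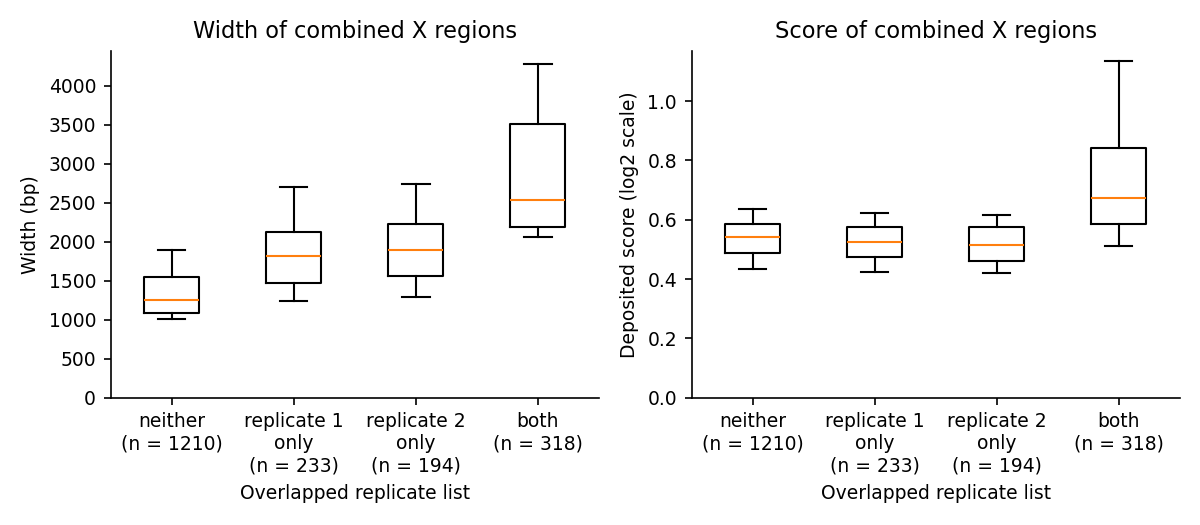
Widths in bp (left) and deposited scores on a log2 scale (right) of the 1955 combined X regions, by the replicate lists they overlapped, with the median as the orange line, the middle 50% as the box and the 10th and 90th percentiles as whiskers. Regions in both lists are the widest, with a median of 2530.5 bp, and the highest scoring, with a median of 0.674, while the other 3 classes have medians of 0.517 to 0.543.

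High combined scores came mostly from regions in both replicates, with an exception at the very top. Of the 20 best combined X scores, 19 belonged to regions in both lists, and of the 100 best, 84 did. The single best X score, 2.55, belonged to a region of only 1001 bp, from 15167963 to 15168963, that was in neither list. The 14 regions in neither list among the 100 best had a median width of 1049 bp, near the minimum. On the arms, too, the best combined score was that of a region in neither list, at 3.17, against 2.07 for the best in both. Counts among the best scores are not given for the arms, so whether they are particular to X was not tested.

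Spacing was uneven, on X as on the autosome arms. The gap from 1 region to the next had a median of 16.1 kb and a mean of 32.8 kb in replicate 1, and 17.9 kb and 35.9 kb in replicate 2. In the combined list the median was 4.46 kb and the mean 8.59 kb. The means lay far above the medians because of long empty stretches, and the coefficient of variation of the gaps was 1.31, 1.52 and 1.45. On the arms together it was 1.39, 1.40 and 1.39. Close neighbours were few in the replicates, where 30 of 576 and 28 of 529 gaps were under 1 kb, and common in the combined list, with 338 of 1954 gaps, or 17.3%. The shares on X, 5.21%, 5.29% and 17.3%, were near those of the arms, 5.24%, 4.76% and 16.0%.

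Clusters were counted as runs of at least 5 regions, each starting no more than 2000 bp after the end of the one before. Neither replicate had a cluster on X, and the longest runs held 4 regions in replicate 1 and 3 in replicate 2. Most replicate regions stood alone by this measure, 477 of 577 and 433 of 530. The combined list had 13 clusters with 72 regions, or 3.68% of its X regions, and they spanned 11265 to 20464 bp. The share was near the 3.32% of the arms. The count depended on the definition, with 3 clusters for gaps up to 1000 bp, 82 for gaps up to 5000 bp, 125 for at least 3 regions and 0 for at least 8.

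The 5 clusters with most regions lay at 508270 to 524834 and 2045719 to 2061379, each with 7 regions, and at 7176484 to 7190411, 10735649 to 10747823 and 13189748 to 13201012, each with 6. The first of them includes the region at 514270, one of the 10 best by score. Of the 72 clustered regions 16 overlapped both replicate lists, or 22.2%, against 16.3% of all combined X regions, a difference that was not tested. The clusters at 7176484 and 10735649 held none. The cluster from 19521984 to 19542447, singled out after its values were seen, was the one best matched by the replicates, with 4 of its 5 regions in both lists and a best score of 1.17.

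Deserts, counted as gaps of at least 100 kb without a region, were a regular feature of the replicate lists. Replicate 1 had 50 on X, which took up 7.43 Mb or 36.4% of the stretch, and replicate 2 had 44, with 8.17 Mb or 40.0%. They coincided in large part. The deserts of the 2 lists had 5.35 Mb in common, which is 72.0% of the desert length of replicate 1 and 65.5% of that of replicate 2. The longest in replicate 2 were not shared in full, since its 442.539 kb from 11923851 to 12366389 and its 429.393 kb from 3183178 to 3612570 held 3 and 5 regions of replicate 1.

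Of the longest deserts, 3 had nearly the same extent in both replicates. The tip was empty from 1 to 380580 in replicate 1 and to 380634 in replicate 2. The next ran from 7219497 to 7565949 in replicate 1 and from 7219682 to 7596494 in replicate 2, where it held 1 region of replicate 1. The third ran from 13785772 to 14074549 in replicate 1 and from 13785798 to 14074387 in replicate 2. Others of the 5 longest also held regions of the other list, namely 14368883 to 14636980 and 16972725 to 17171965 in replicate 1, with 2 and 4, and 14478371 to 14811711 in replicate 2, with 4. Stretches of at least 100 kb without a region in either list numbered 35, with 5.04 Mb in all or 24.7% of X.

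None of these stretches was empty in the combined list. They held 218 combined regions, or 43.3 per Mb, a density that their choice as free of replicate regions lowers in itself. The tip was the emptiest, with 2 combined regions in 380.58 kb, and the stretch from 7219682 to 7565949 held 5 in 346.268 kb. The combined list itself had only 5 deserts, at 1 to 172566, 173901 to 332673, 7294528 to 7417490, 16711764 to 16824392 and 7671389 to 7777744. The first 4 held no region of either replicate, whereas the last held 1 region of replicate 1.

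Some strong regions stood directly beside empty ground. Of the 10 best X regions, 3 had an edge within 1 kb of a stretch empty in both replicates, namely those at 380604, 14074394 and 20127076, against 24 of all 318 regions in both lists. The region at 380604 was the first from the tip in both replicates, and the best one, at 14074394, ended the 289 kb without a region from 13785798 to 14074387. This was noticed after the values were seen, and no test of it was made.

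The autosome arms 2L, 2R, 3L and 3R, taken whole, served to set X against the rest of the genome. For each of 6 measures the signs of the replicate differences were permuted exactly, two-sided with n = 2, which gave p = 0.5 throughout (Benjamini-Hochberg adjusted p = 0.5), the smallest p that 2 replicates allow, so no difference between X and the arms can pass a threshold here. Both replicates lay on the same side in each measure.

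Density and coverage were slightly higher on X. It had 28.3 regions per Mb against 25.1 on the arms in replicate 1 and 26.0 against 22.7 in replicate 2, a ratio of 1.14 ± 0.0149 (SD, n = 2). Covered sequence was 5.41% against 4.77% and 4.93% against 4.30%, also a ratio of 1.14 (± 0.00979). X stood above 2L, 3L and 3R but below 2R in both measures and all 3 lists, so it was within the range of single arms. In the combined list the ratios were 1.02 and 1.08, and the former was 0.998 when the arms were counted without their centromere-proximal 2 Mb. Among the better scoring 50% of each list, a selection by the score in which X is higher, the replicate ratios were 1.90 and 1.76 and the combined ones 1.84 and 1.82.

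Gaps were shorter on X at the median, and widths differed little. The median gap on X was 0.824 ± 0.0309 times that of the arms over the replicates (SD, n = 2) and 0.908 times in the combined list. In both replicates it was shorter than on any single arm, though only just below 2R in replicate 1, at 16.05 against 16.12 kb. In the combined list 2R had the shorter median gap, at 4.15 kb against 4.46 kb on X. The median width on X was 1.03 ± 0.00580 times that of the arms in the replicates and 1.05 times in the combined list. Deserts took up 36.4% and 40.0% of X in the replicates, between the 31.0% and 34.9% of 2R and the 44.4% and 47.5% of 2L. The share of regions found in both replicates differed from the arms by 1.13 ± 0.557 percentage points, with 56.2% against 54.6% and 61.5% against 60.8%. Among the better scoring 50% of each list the difference was -0.268 points and the width ratio 0.955, so both turned direction, and the gap ratio was 0.436.

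**Figure D4:**
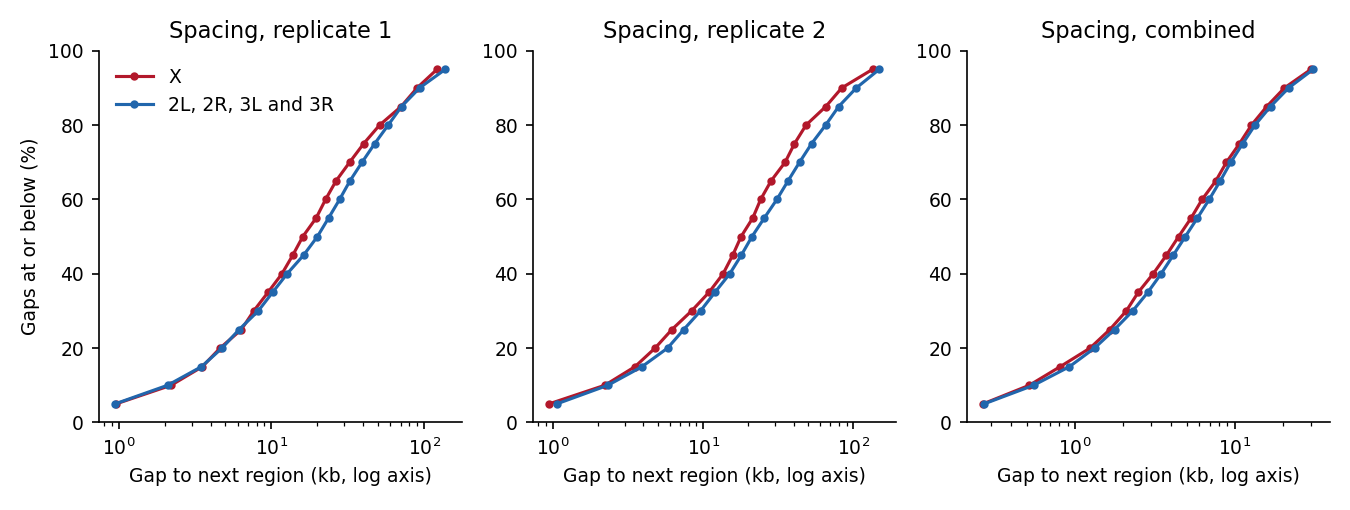
Gaps between neighbouring regions on X (red) and on 2L, 2R, 3L and 3R (blue), as the percentage of gaps (vertical axis) at or below a length in kb (horizontal axis, log scale), for each list. The curves nearly coincide at the short end and X lies to the left in the middle, with medians of 16.1, 17.9 and 4.46 kb in the 3 lists.

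The median score on X was above that of every single arm in all 3 lists. The median score was 0.803 on X against 0.681 on the arms in replicate 1, 0.737 against 0.636 in replicate 2 and 0.550 against 0.472 among combined regions. The difference was 0.111 ± 0.0147 over the replicates (SD, n = 2), larger than the spread between them. It was 0.0410 among the better scoring 50% of each list, and 0.0426 there for combined regions. Single arms were tightly grouped, from 0.674 to 0.684 in replicate 1, 0.630 to 0.645 in replicate 2 and 0.470 to 0.475 among combined regions, all below X.

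The difference ran through the whole distribution and was not a matter of a few strong regions. At the 10th percentile of scores X was higher by 0.0786 in replicate 1, 0.0753 in replicate 2 and 0.0660 among combined regions. At the 90th percentile the differences were 0.157, 0.114 and 0.0967. The maximum went the other way, since the best score on X minus the best on the arms was -0.484, -0.518 and -0.621 in the 3 lists. X regions made up 18.4% of the replicate 1 list, and 75.9% of them were in its better scoring 50%, as were 73.0% of those in replicate 2 and 78.1% of the combined ones.

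The shift ran along the whole chromosome. The median score of a 500-kb window was above the median of the arms in 41 of 41 windows in replicate 1, 38 of 41 in replicate 2 and 41 of 41 among combined regions. Median score and coverage had a Spearman rho of 0.145 over the 41 windows of the combined list. This value describes windows within X and was not a test of the difference from the arms. The sparse end of X beyond the bound had median scores of 0.800 over its 19 regions in replicate 1, 0.699 over 18 in replicate 2 and 0.550 over 92 among combined regions, also above the arms. The lists do not give the input signal, and the share of male embryos is not stated, so their part in the shift was not tested.

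**Figure D5:**
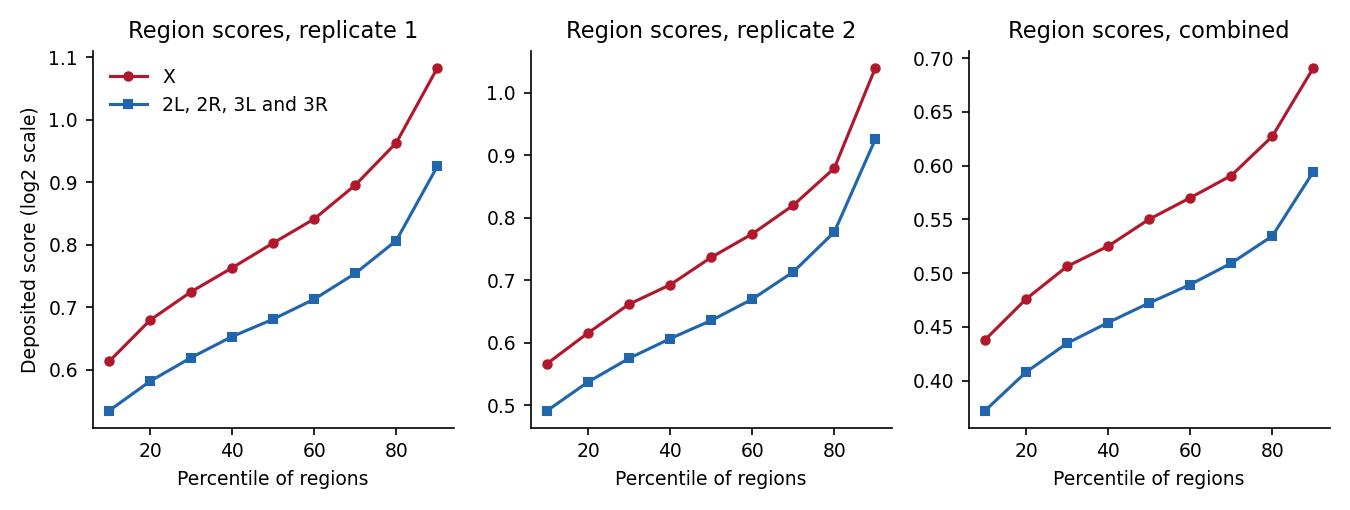
Deposited scores on a log2 scale (vertical axis) at the 10th to 90th percentiles of regions (horizontal axis) on X (red circles) and on 2L, 2R, 3L and 3R (blue squares) for each list, with vertical axes that differ and do not start at 0. X lies above the arms at all percentiles shown, by 0.0786 to 0.157 in replicate 1, 0.0753 to 0.114 in replicate 2 and 0.0660 to 0.0967 among combined regions.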

How the data were processed

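The analysis started from the authors' 3 lists of enriched regions, 1 per ChIP replicate and 1 for the replicate set. Each gives start, end and 1 deposited score per region, on FlyBase release 5, per the file headers. The submitters' processing notes name Bowtie (0.12.7). How regions were called, at which threshold, and how the replicates were combined is not stated in the sources at hand. Read depth is unknown, and the input libraries were not used here as separate data.

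Groups and replicate numbers came from the sample titles. Overlap meant at least 1 bp. Clusters, deserts and windows were defined as stated with the results. Regions are not replicates, so no test was made over them, and tests used the 2 replicates only. Named regions were the 10 best scoring and 5 widest among combined regions in both replicate lists, the 5 largest clusters and longest deserts, and the 3 most and least covered windows. Regions and rules were chosen with earlier results of these data known. The counting of overlaps, clusters, deserts and coverage was tested on simulated data. Calculations were done in Python (3.11.15) with pandas (2.3.3), numpy (2.4.6) and scipy (1.17.1), and plots were drawn with matplotlib (3.10.9).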

Additional observations from a re-analysis of the deposited data

How the results depend on the processing

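No paired analysis was possible because no region lists of the inputs, which carry the same replicate numbers, were analysed here. X and the arms were compared within each replicate. X to arm values from a single replicate ranged from 1.12 to 1.15 for regions per Mb and from 0.101 to 0.122 for the median score. The share of X regions in both replicates, 58.8% on average, was 62.9% with regions extended by 500 bp and 49.6% in the better scoring 50% of each list. Common bases, 40.2%, were 41.3% and 33.4% in the same order, and 40.19% with neighbours under 1000 bp merged.

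Without the arms' proximal 2 Mb, the X to arm ratio of regions per Mb was 1.11 (combined 0.998) and of covered sequence 1.11 (combined 1.05). In the better scoring 50%, selected by the score in which X is higher, the ratios were 1.90 and 1.76 (combined 1.84 and 1.82), the gap ratio 0.436 (0.465), the width ratio 0.955 (1.06), the score difference 0.0410 (0.0426) and the difference in shared regions -0.268 points. So the replicate width ratio and the shared difference changed direction there, and the combined width ratio did not. After merging, the combined ratios of regions per Mb and width were 1.01 and 1.08.

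Cluster counts depended on their definition. The combined 13 became 3 with gaps up to 1000 bp, 82 with gaps up to 5000 bp, 125 with at least 3 regions and 0 with at least 8. Replicate 1 had 4 and replicate 2 had 3 with at least 3 regions, and replicate 2 had 1 with gaps up to 5000 bp. Deserts of at least 50 kb numbered 120, 102 and 33 in replicate 1, replicate 2 and the combined list, and of at least 200 kb 4, 11 and 0.

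The window correlation of 0.818 was 0.820 in 200-kb windows, 0.805 in 1000-kb windows and 0.772 without 2 windows. Combined X regions in both and in neither list were 13.5% and 64.6% with reciprocal overlap of 50% and 19.7% and 55.1% with extension. Restricting to the better scoring 50% gave 12.9% and 65.8%, and merging gave 18.9% and 58.7%. Among regions in both replicates, the rho of score and width was 0.732 for replicate 1, 0.751 for replicate 2 and 0.287 for combined regions, and it was 0.154 among combined regions with the better scores. For these the cause was not tested. The reciprocal overlap by width was chosen after seeing the data, and the other alternatives were planned. As depth is unknown, absence from a list may only mean a signal too weak for a call.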

Other observations

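On X, neighbouring regions did not resemble each other in strength. Spearman's rho between the score of a region and that of the next one was -0.0207 over 576 pairs in replicate 1, 0.00598 over 529 in replicate 2 and 0.0234 over 1954 in the combined list. The widths of neighbours had a rho of 0.0349, -0.0333 and 0.0752. Median scores of 500-kb windows followed each other in the replicates less closely than coverage did, with a Spearman rho of 0.297 against 0.805 over 41 windows.

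Some scores recurred exactly, each in a small share of regions. On X, 25 combined regions (1.28%) had a score of 0.587, the commonest there. On the arms the commonest combined score was 0.435, with 116 regions (1.28%). In replicate 1 the commonest score was 0.816 on X, with 13 regions (2.25%), and the same value on the arms, with 20 (0.823%). In replicate 2 it was 0.879 on X, with 8 regions (1.51%), and 0.616 on the arms, with 13 (0.594%).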
